A study of Mus musculus with 3 samples.

Results

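The genes described here are 8 inhibitory and paired surface receptors of macrophages, taken by name from the 31053 features of the deposited count matrices: Pirb, Pira2, Lilrb4a, Lair1, Sirpa, Siglec1, Siglece and Cd200r1. They were listed by name and not by a threshold on these data, but with earlier results of these data known. They were read in tumour-associated macrophages of 3 mice of strain FVB/N-Tg(MMTVPyVT)634Mul/J, in which the mammary tumour virus promoter drives the polyoma middle T oncogene in the mammary epithelium. Each mouse gave 1 mammary adenocarcinoma of 750 mm3, digested with collagenase and DNase at 37 degrees and sorted as CD45+ Ly6G- CD11b+ F4/80+. The 3 mice formed 1 group, with no treatment and no tumour-free control, and ages were not analysed here. Single cells were profiled with a 10x 3' v3 kit, whose unique molecular identifiers (UMIs) count transcripts read near their 3' end, so the comparisons are between classes of macrophages within the same tumours.

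Myeloid cells carry pairs and families of surface receptors that set how readily they respond. Inhibitory members bear tyrosine motifs in their tails that recruit the phosphatases SHP-1 and SHP-2 (Ptpn6 and Ptpn11) or SHIP-1 (Inpp5d), whereas activating members signal through adaptors such as the Fc receptor gamma chain (Fcer1g) or DAP12 (Tyrobp). Pirb is the inhibitory and Pira2 an activating paired immunoglobulin-like receptor, and both bind MHC class I. Lilrb4a encodes the inhibitory receptor gp49B, Lair1 a collagen receptor, Sirpa the receptor for the "do not eat me" ligand CD47, Siglec1 and Siglece receptors for sialic acid, and Cd200r1 the receptor for CD200.

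Cells with under 500 genes or over 15% mitochondrial UMIs were removed. Scrublet doublet calls, 2, 9 and 0 in mice 1, 2 and 3, were removed too. This left 661, 2099 and 6978 cells, with median depths of 14996, 13579 and 9318.5 UMIs. Mice 2 and 3 shared 8 cell barcodes and the other pairs 0. Leiden clustering, run without the receptor genes and their pathway lists, gave 13 macrophage classes and 1 cluster of 54 tumour epithelial cells. Markers named 6 classes: LYVE-1 resident-like (489 cells), interferon-like (397), cycling-like (827), inflammatory-like (1532), stress-like (1055) and hypoxia-like (724). The other classes kept numbers. Cluster 2 was led by Plac8, Nrg1, Ccl7 and F13a1, cluster 5 by Gm26522, Il16, Asb2 and Txnip, cluster 13 by Retnla, Lyz1 and Ear2, cluster 1 by Rims2, Epb41l3, Apoc4 and Vcam1, and cluster 7 by Gm33195 and Ctcflos. A few numbered clusters stood apart in depth: cluster 0 had a median of 1927 UMIs per cell, cluster 11 of 26751 and cluster 13 of 27954. Cluster 13 held 12, 238 and 217 cells in mice 1, 2 and 3. In cluster 11, 12 of 12 LYVE-1 resident and 11 of 11 inflammatory markers lay above the other clusters, and its median Scrublet doublet score was the highest, 0.118. The gate genes Adgre1 (F4/80) and Itgam (CD11b) were detected in 86.9% ± 1.75 and 67.5% ± 2.99 of macrophage cells (SD, n = 3), and Csf1r in 96.2% ± 0.886.

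On mouse build GRCm38 (mm10), Pirb (chr7:3711409-3720391), Pira2 (chr7:3836812-3845051) and Lair1 (chr7:4003402-4063204) lie in 1 receptor cluster on the minus strand of chromosome 7, with Siglece (chr7:43651070-43660161) farther along the same strand. Lilrb4a (chr10:51490956-51496611, plus strand) lies next to its near-identical copy Lilr4b, with 4253 bases between them. Sirpa (chr2:129592835-129632228, plus), Siglec1 (chr2:131069220-131086765, minus) and Cd200r1 (chr16:44765736-44794978, plus) complete the set. These gene models bear on what the counts can separate. Of the distinct windows of 90 bases in the last 500 bases of the coding transcripts, 89.2% of those of Pira2 also occurred in other genes, among them Lilra6, Gm14548, Gm15448 and, outside its own end, Pirb. For Lilrb4a the share was 83.8%, shared with Lilr4b and Gm49339. It was 0% for Pirb, Lair1, Sirpa, Siglece and Cd200r1 and 1.30% for Siglec1. Values of Pira2 and Lilrb4a are therefore uncertain as values of 1 gene, and could hold reads of, or lack reads shared with, those copies.

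Pirb and Pira2 moved together across the classes, and Lair1 moved the other way in some of them. For that reason the 250 bases upstream of the RefSeq start sites are shown for the 3 neighbours of the chromosome 7 cluster. They were taken from RefSeq on GRCm38.p6, minus strand, 5′ to 3′, and capitals mark GAGGAA or its reverse complement, the core of binding sites for the myeloid factor PU.1. They cover chr7:3720383-3720632 for Pirb, chr7:3845052-3845301 for Pira2 and chr7:4063205-4063454 for Lair1.
Pirb: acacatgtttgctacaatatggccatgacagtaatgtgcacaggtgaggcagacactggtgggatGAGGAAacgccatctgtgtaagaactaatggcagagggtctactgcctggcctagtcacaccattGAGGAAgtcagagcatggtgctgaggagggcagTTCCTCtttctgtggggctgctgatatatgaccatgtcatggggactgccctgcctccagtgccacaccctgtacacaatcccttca
Pira2: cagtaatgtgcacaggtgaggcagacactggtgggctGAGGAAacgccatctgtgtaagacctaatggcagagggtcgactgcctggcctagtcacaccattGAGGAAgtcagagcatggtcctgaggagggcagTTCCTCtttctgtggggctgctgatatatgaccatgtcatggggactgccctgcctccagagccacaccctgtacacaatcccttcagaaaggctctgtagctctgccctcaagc
Lair1: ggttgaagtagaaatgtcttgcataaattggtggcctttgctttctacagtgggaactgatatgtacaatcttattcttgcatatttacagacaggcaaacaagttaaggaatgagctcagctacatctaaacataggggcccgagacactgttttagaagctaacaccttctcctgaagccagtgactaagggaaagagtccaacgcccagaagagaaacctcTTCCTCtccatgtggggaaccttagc
The Pirb and Pira2 stretches matched at 217 of 222 aligned bases (97.75%). Pirb and Lair1 matched at 58.6% of 220 aligned bases. The stretch of the distant Siglece, not shown, matched Pirb at 67.1%, Pira2 at 66.35% and Lair1 at 60.1% of the bases aligned in the same way. The core stood at 3 places in Pirb, at 3 in Pira2 and at 1 in Lair1 (both strands), and 23.25% of the 32851 RefSeq promoters cut to that length held at least 1. The table holds Siglece too, with 3 places. An AP-1 type motif (TGANTCA, both strands, in 6.75% of promoters) matched in none of the 4 stretches. A match describes letters and is no evidence of binding.

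For each mouse, the UMIs of a gene in a class were divided by all UMIs of that class, which gives a level in CPM, a scale on which every class of every mouse has the same total. Over all macrophage classes, Pirb stood at 132, 128 and 120 CPM in mice 1, 2 and 3, and Pira2 at 47.7, 48.0 and 41.1. Sirpa stood at 311, 284 and 263 CPM and Lair1 at 151, 171 and 190. Siglece stood at 24.4, 29.5 and 27.2 CPM, and Cd200r1 at 12.1, 15.5 and 7.61. Apart from Cd200r1, which was lowest in mouse 3, these receptors lay close together in the 3 mice. Lilrb4a varied more and stood at 177, 259 and 77.9 CPM, lowest in mouse 3. Siglec1 stood at 17.8, 9.45 and 9.28 CPM, highest in mouse 1. A UMI was found in 43.8% ± 4.27 of macrophages for Sirpa, 27.7% ± 2.94 for Lair1, 27.1% ± 12.2 for Lilrb4a, 21.4% ± 2.33 for Pirb, 7.39% ± 0.963 for Pira2, 5.60% ± 0.749 for Siglece, 2.30% ± 1.26 for Siglec1 and 1.65% ± 0.257 for Cd200r1, with every cell thinned to 2000 UMIs. The epithelial cluster is given for comparison, and the source of the receptor UMIs in it was not tested. This cluster held 11.1 CPM of Pirb against 124 in all macrophages pooled. It held 3.71 against 43.6 CPM of Pira2, 22.3 against 139 of Lilrb4a, 33.4 against 182 of Lair1 and 61.3 against 273 of Sirpa. For Siglec1 it held 1.86 against 10.0 CPM, for Siglece 3.71 against 27.7 and for Cd200r1 1.86 against 10.3. The epithelial values of Pira2, Siglec1, Siglece and Cd200r1 rest on 1 or 2 UMIs each.

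**Figure D1:**
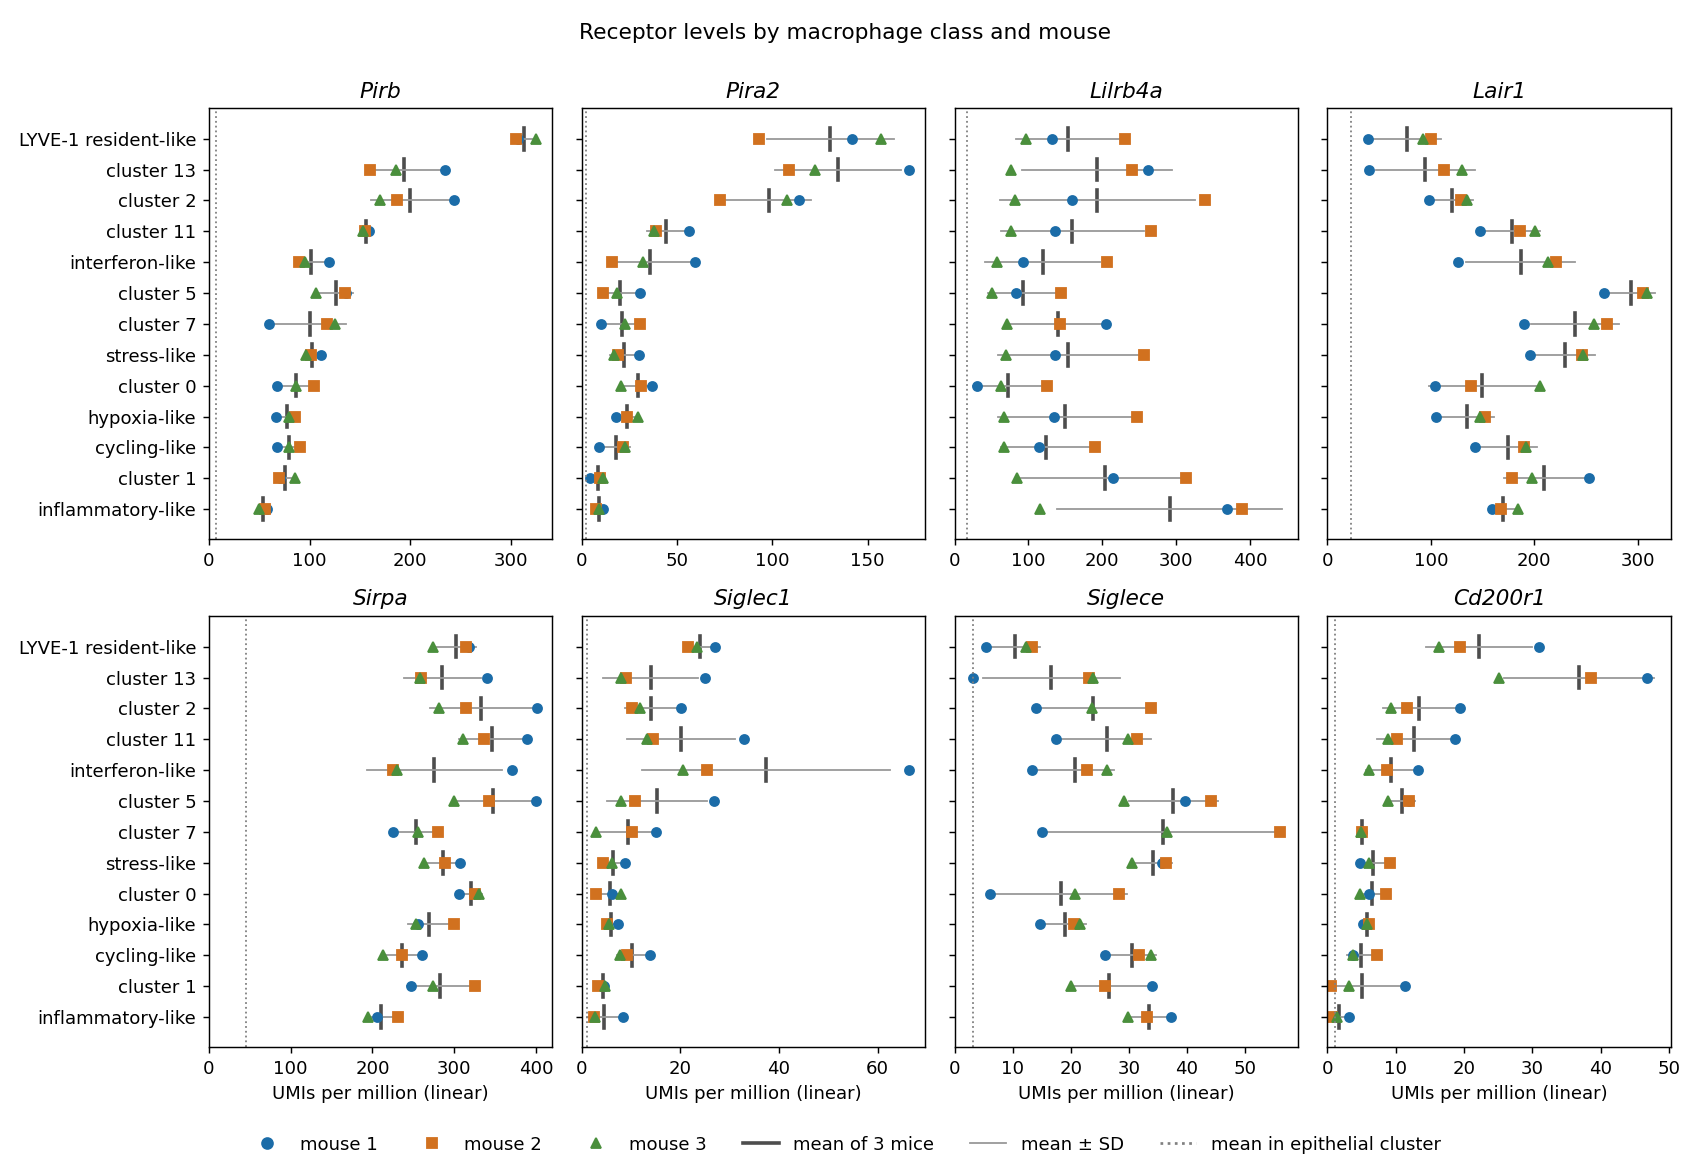
Level of each receptor gene in CPM (linear axis from 0) in the 13 macrophage classes. Points are the 3 mice, thick bars the mean and thin lines the mean ± SD, and the dotted line is the mean in the epithelial cluster; Pirb, Pira2 and Cd200r1 are highest in cluster 13 or LYVE-1 resident-like cells and lowest in the inflammatory-like class or cluster 1, LYVE-1 resident-like cells are the lowest in Lair1 and Siglece, and Sirpa is spread over a 1.65-fold range.

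The receptors differed between macrophage classes, and they fell into different patterns. Each class was compared with the unweighted mean of the others in edgeR, with the mouse as a block, and values after a log2 difference are its SE, those after a level in CPM the SD over 3 mice. Of the 104 pairs of receptor and class, 49 passed an adjusted p of 0.05, 26 of them higher and 23 lower. That is 47.1% of pairs, against 18.6% of pairs of a class and a gene not used to cluster (10.9% higher and 7.73% lower). Genes chosen for clustering as the most variable are left out of the latter share. The receptors were kept out of that choice however variable they were, so the 2 shares are not fully alike. The receptors were also listed with earlier results of these data known. The classes come from the same cells that are tested, so the p-values describe differences between these classes and are not independent of the clustering, although the receptors themselves were left out of it. In each sentence that follows, the shares are of the 8770 genes tested and not used to cluster, called all genes here and below. The LYVE-1 resident-like class had 4 receptors higher (18.4% of genes) and 2 lower (14.8%), with a median over the 8 of 0.80 on the log2 scale (all genes had class medians from -0.03 to 0.05). Cluster 2 had 6 higher (15.9%) and 1 lower (9.69%), and cluster 13 had 3 higher (13.5%) and 1 lower (10.3%). Inflammatory-like cells had 2 higher (15.7%) and 5 lower (12.1%), with a median of -0.63. Cycling-like cells had 0 higher (18.6%) and 4 lower (15.2%). Cluster 1 had 2 higher (8.21%) and 4 lower (4.24%), cluster 5 had 2 higher (19.1%) and 2 lower (15.1%), and stress-like cells had 2 higher (8.19%) and 2 lower (5.58%). Cluster 11 had 3 higher (7.15%) and 0 lower (4.06%), and hypoxia-like cells 0 higher (7.79%) and 2 lower (5.2%). Interferon-like cells had 1 higher (4.04%) and 0 lower (1.2%), cluster 7 had 1 higher (2.01%) and 0 lower (1.74%), and the shallow cluster 0 had 0 higher (2.94%) and 0 lower (1.33%). With cluster 0 and the deep clusters 11 and 13 all left out, an alternative added after seeing the data, 36 of 80 pairs passed. Without mouse 2, 29 of 104 passed and without mouse 3, 32, while 27 of the 49 calls held when each mouse was left out in turn.

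**Figure D2:**
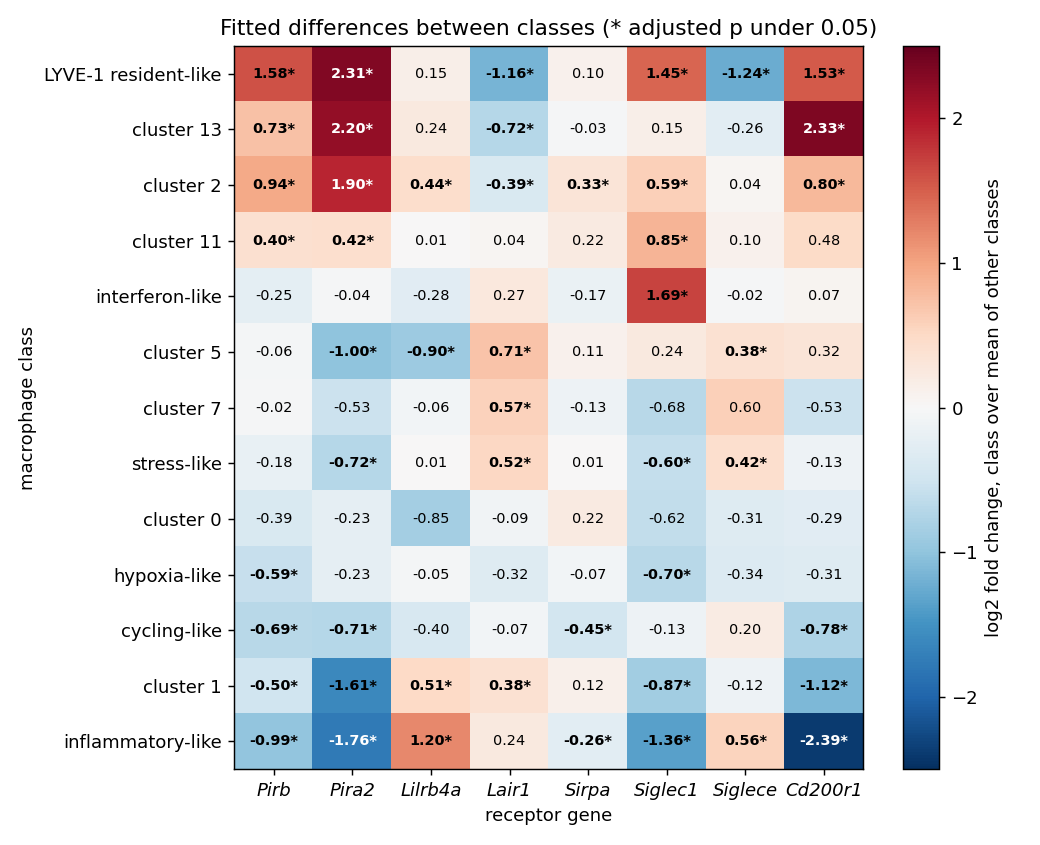
Fitted log2 fold change of each receptor gene (columns) in each macrophage class (rows) over the unweighted mean of the other classes, from edgeR on 39 sums of 3 mice. Red is higher, blue is lower, and a star marks the 49 pairs with an adjusted p under 0.05; Pirb, Pira2 and Cd200r1 share most of their signs, and Lair1 has the opposite sign to Pirb in clusters 13, 2 and 1 and in LYVE-1 resident-like cells.

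Pirb, the inhibitory paired receptor for MHC class I, was highest in LYVE-1 resident-like macrophages. It stood there at 308, 305 and 325 CPM in mice 1, 2 and 3, above all 12 other classes in every mouse. The fitted difference was 1.58 ± 0.09 on the log2 scale (edgeR adjusted p = 1.22e-19). Cluster 2 followed at 244, 187 and 169 CPM (0.94 ± 0.09, adjusted p = 1.15e-11) and cluster 13 at 234, 160 and 186 (0.73 ± 0.10, adjusted p = 2.77e-08), and these neighbours overlapped each other. The deep cluster 11 stood at 159, 155 and 153 CPM (0.40 ± 0.09, adjusted p = 0.00238). At the other end, inflammatory-like macrophages held 57.6, 55.4 and 49.3 CPM of Pirb, below all 12 other classes in every mouse (-0.99 ± 0.11, adjusted p = 2.77e-10). Pirb was also lower in cycling-like (-0.69 ± 0.10), hypoxia-like (-0.59 ± 0.11) and cluster 1 cells (-0.50 ± 0.11). The remaining 5 classes ranged from 86.1 to 126 CPM on average and did not pass. In the order of class means, 4 of 12 neighbouring classes lay apart without overlap, against 1 of 12 for Pira2 and Cd200r1 and 0 of 12 for the other 5 receptors. The call in cluster 11 was lost without mouse 2 (adjusted p = 0.255) or mouse 3 (0.085), and that in cluster 1 without mouse 2 (0.165). Both were also lost with cells thinned to 2000 UMIs.

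The LYVE-1 resident-like class was also high in markers of other lists. Its 10 monocyte markers summed to 1886 to 2162 CPM in the 3 mice, the highest of all classes on average, ahead of cluster 13 (984 to 1864) and cluster 2 (698 to 1606), and against 40.1 to 1101 in the other 10, the inflammatory-like class among them (61.4 to 67.6). The 11 inflammatory markers summed to 10874 to 23661 CPM in cluster 2, second to the LYVE-1 resident-like class in Pirb, and to 12381 to 24495 in inflammatory-like cells, where Pirb was lowest. Its 10 stress markers, Fos, Jun and heat shock genes, summed to 8221 to 9318 CPM, against 1224 to 6204 in the 11 classes other than the stress-like one. The part of all these genes in the receptor levels was not tested. With other clustering settings this class could not be followed (Jaccard index 0.331 at resolution 0.5, 0.311 at resolution 1.5 and 0.412 with 4000 variable genes), so its values rest on the clustering used and on a clustering of 1 of 2 random sets of the UMIs (Jaccard index 0.625).

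Pira2, the activating partner that signals through the Fc receptor gamma chain, was high in the same classes and more steeply graded. It stood at 172, 109 and 123 CPM in cluster 13 (log2 difference 2.20 ± 0.12, edgeR adjusted p = 3.47e-16). In LYVE-1 resident-like cells it stood at 142, 93.0 and 157 CPM (2.31 ± 0.14, adjusted p = 4.73e-15), and in cluster 2 at 114, 72.7 and 108 (1.90 ± 0.13, adjusted p = 4.08e-13). These 3 classes overlapped each other, and each lay above the other 10 in every mouse. Pira2 was lowest in cluster 1, at 4.52, 9.60 and 10.9 CPM (-1.61 ± 0.23), and in inflammatory-like cells, at 9.08 ± 1.83 CPM (SD, n = 3; -1.76 ± 0.20, adjusted p = 2.01e-08). It also passed as lower in cluster 5 (20.1 ± 9.70 CPM), stress-like (-0.72 ± 0.19) and cycling-like cells (-0.71 ± 0.16), and as higher in cluster 11 (0.42 ± 0.13, adjusted p = 0.0367). The calls in cluster 11 and in stress-like cells were lost without mouse 2 or mouse 3 (adjusted p from 0.14 to 0.569), and that in cluster 5 without mouse 2 (0.065). With cells thinned to 2000 UMIs the calls in clusters 11 and 5 were lost. In cycling-like cells the sign turned, without passing, when 4000 variable genes defined the clusters (0.18, adjusted p = 0.604).

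The partners did not keep a constant proportion. Cluster 13 held 1.36, 1.47 and 1.52 UMIs of Pirb per UMI of Pira2 in mice 1, 2 and 3. Cluster 2 held 2.14, 2.58 and 1.57, and LYVE-1 resident-like cells 2.17, 3.29 and 2.07. Inflammatory-like cells held 5.24, 7.51 and 5.57, and cluster 1 held 15.5, 7.24 and 7.84. The value of 15.5 is 31 over 2 UMIs, with Pira2 there close to the level in the epithelial cluster. The ratios of clusters 13 and 2 and of LYVE-1 resident-like cells lay below those of inflammatory-like cells and cluster 1 in every mouse. Cluster 5, in which Pira2 was lower while Pirb did not pass, held 4.48, 12.03 and 5.74. Between cluster 1 and cluster 13 the mean log2 ratio differed by 2.72. The ratio was not tested, and its absolute size depends on the shared 3′ sequence of Pira2 described above. Lilra6, an activating paired receptor with the same shared sequence, was likewise higher in LYVE-1 resident-like cells (1.82 ± 0.20, 23.7 ± 2.98 CPM, SD, n = 3) and lower in inflammatory-like cells (-1.65 ± 0.26, 2.19 ± 0.543 CPM).

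Cd200r1, the inhibitory receptor for CD200, was sparse, with 134, 615 and 649 UMIs in all macrophages of mice 1, 2 and 3, and was high in the same classes. It stood at 46.8, 38.6 and 25.1 CPM in cluster 13, above 11 of the 12 other classes in every mouse (log2 difference 2.33 ± 0.16, a fold of 5.01, edgeR adjusted p = 7.91e-18). In mouse 2 this class, of 238 cells, held 384 of the 615 UMIs, and in mouse 1 its 12 cells held 15. Cluster 13 was also the lowest class in Csf1r, Cd68 and Fcgr1 (586, 546 and 124 CPM, against 910, 865 and 585 in the highest class). Adgre1, Itgam, Mertk, Lyz2 and Ptprc were lowest in other classes. LYVE-1 resident-like cells held 31.0, 19.4 and 16.3 CPM (1.53 ± 0.22, adjusted p = 1.54e-07) and cluster 2 held 19.4, 11.6 and 9.35 (0.80 ± 0.22, adjusted p = 0.00358). Inflammatory-like cells held 3.14, 0.598 and 1.42 CPM, from 6, 3 and 13 UMIs (-2.39 ± 0.30, adjusted p = 9.04e-09), close to the 1.86 CPM of the epithelial cluster. Cycling-like cells (-0.78 ± 0.23) and cluster 1 (-1.12 ± 0.30) passed as lower too, cluster 1 with the same sign in 2 of 3 mice only. Without mouse 3 the calls in cluster 2 (adjusted p = 0.056), cycling-like cells (0.36) and cluster 1 (0.25) were lost, and without mouse 2 that in cluster 1 (0.271). In cycling-like cells the sign turned with 4000 variable genes (0.20, adjusted p = 0.592). The 11 dendritic cell markers summed to 32.3 to 325 CPM in cluster 13 across the mice, and their part in its values was not tested.

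Lair1, the inhibitory receptor for collagens and C1q, passed in the opposite direction to Pirb in LYVE-1 resident-like cells and clusters 13, 2 and 1. In inflammatory-like cells, where Pirb was lowest, Lair1 did not pass (0.24 ± 0.10, edgeR adjusted p = 0.0792, that sign in 1 of 3 mice). It shared the fitted sign of Pirb, without passing, in hypoxia-like and cycling-like cells and clusters 0 and 11. Lair1 was highest in cluster 5, at 268, 306 and 309 CPM, above 11 of the 12 other classes in every mouse (0.71 ± 0.10, edgeR adjusted p = 4.89e-07). Stress-like cells held 196, 246 and 247 CPM (0.52 ± 0.10), cluster 7 held 190, 270 and 258 (0.57 ± 0.14) and cluster 1 held 253, 178 and 198 (0.38 ± 0.11). LYVE-1 resident-like cells held 39.1, 100 and 92.0 CPM, the lowest level, below 10 of the other classes in every mouse (-1.16 ± 0.14, adjusted p = 7.03e-09). Cluster 13 stood at 40.6, 113 and 130 CPM (-0.72 ± 0.12, adjusted p = 1.33e-05) and cluster 2 at 98.3, 129 and 135 (-0.39 ± 0.12, adjusted p = 0.0109). Mouse 1 lay below the other mice in 12 of the 13 classes, cluster 1 being the exception. The calls in cluster 5, cluster 13 and LYVE-1 resident-like cells held without each mouse. Those in clusters 7 and 2 were lost without mouse 2 (adjusted p = 0.19 and 0.14) or mouse 3 (0.338 and 0.23), that in stress-like cells without mouse 2 (0.0923), and that in cluster 1 without any 1 of the mice (0.1 to 0.12).

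Siglece, an inhibitory sialic acid receptor, shared part of this pattern. It stood at 37.2, 33.1 and 29.9 CPM in inflammatory-like cells (0.56 ± 0.13, edgeR adjusted p = 7.08e-04). Cluster 5 held 39.7, 44.2 and 29.1 CPM (0.38 ± 0.15, adjusted p = 0.0476) and stress-like cells 35.8, 36.3 and 30.6 (0.42 ± 0.14, adjusted p = 0.0398). LYVE-1 resident-like cells held 5.40, 13.3 and 12.3 CPM, below 9 of the 12 other classes in every mouse (-1.24 ± 0.24, adjusted p = 5.24e-05). With cells thinned to 2000 UMIs this difference kept its direction but not the call (adjusted p = 0.066). Cluster 5 and stress-like cells lost their calls without mouse 1 (adjusted p = 0.11 and 0.081) or mouse 2 (0.365 and 0.304), and stress-like cells also without mouse 3 (0.14).

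Lilrb4a, which encodes the inhibitory gp49B receptor, was highest in inflammatory-like macrophages within each mouse, although the mice differed so much that the ranges of all 13 classes overlapped. It stood there at 369, 389 and 115 CPM (1.20 ± 0.14, edgeR adjusted p = 2.32e-07, with the mouse as a block; adjusted p = 0.0675 without the block). It was lower in cluster 5, at 83.0, 144 and 50.4 CPM (-0.90 ± 0.18, adjusted p = 3.58e-04; 0.28 without the block). Clusters 1 (0.51 ± 0.16) and 2 (0.44 ± 0.16) passed narrowly, and both calls were lost without mouse 2 (adjusted p = 0.42 and 0.637) or mouse 3 (0.19 and 0.12). Lilr4b, the near-identical copy whose product lacks the inhibitory motifs, was likewise higher in inflammatory-like cells (0.98 ± 0.11, 639 ± 154 CPM, SD, n = 3) and lower in cluster 5 (-1.52 ± 0.14, 159 ± 9.06 CPM). Of the UMIs of the 2 copies together, Lilrb4a made up 30.1%, 33.3% and 18.8% in mice 1, 2 and 3. Their sum stood at 588, 779 and 415 CPM. Mouse 3 was thus lower in the sum and in the share of Lilrb4a, and whether reads of the copies were assigned alike in the 3 libraries was not tested.

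Siglec1 (CD169), an adhesion receptor for sialic acid that lacks an inhibitory motif of its own, was highest in interferon-like macrophages, a class named for genes induced by interferon. It stood there at 66.3, 25.5 and 20.5 CPM, from 10, 29 and 78 UMIs, above 8 of the 12 other classes in every mouse (1.69 ± 0.20, edgeR adjusted p = 1.79e-09). LYVE-1 resident-like cells followed at 27.0, 21.5 and 23.4 CPM (1.45 ± 0.19, adjusted p = 8.34e-09), overlapping the interferon-like values. Their 11 interferon markers summed to 210 to 422 CPM, against 2906 to 4009 in interferon-like cells and 216 to 430 in inflammatory-like cells, where Siglec1 was lowest but for cluster 1. It stood there at 8.38, 2.39 and 2.63 CPM (-1.36 ± 0.22, adjusted p = 2.10e-06). With cells thinned to 2000 UMIs the inflammatory-like call was lost (adjusted p = 0.131). Cluster 11 (0.85 ± 0.14) and cluster 2 (0.59 ± 0.19) passed as higher, and cluster 1 (-0.87 ± 0.24), hypoxia-like (-0.70 ± 0.23) and stress-like cells (-0.60 ± 0.21) as lower. These 5 calls were lost without mouse 2 (adjusted p from 0.057 to 0.36). The stress-like, hypoxia-like, cluster 1 and cluster 2 calls were also lost without mouse 3 (0.11 to 0.21). The stress-like and hypoxia-like ones were lost without mouse 1 too (0.14 and 0.11). With cells thinned to 2000 UMIs the calls in clusters 11 and 1 and in stress-like and hypoxia-like cells were lost. In mouse 1 the interferon-like class held 10 cells. Across the mice its dendritic cell markers summed to 13.1 to 610 CPM and its T cell markers to 22.3 to 223, and their part in the values was not tested.

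Sirpa, the inhibitory receptor for CD47, varied least, with a 1.65-fold range between the highest and the lowest class mean. It was lower in cycling-like cells, at 260, 236 and 213 CPM (-0.45 ± 0.09, edgeR adjusted p = 3.11e-05). It was lower too in inflammatory-like cells, at 206, 232 and 195 CPM (-0.26 ± 0.08, adjusted p = 0.0138), and higher in cluster 2, at 402, 314 and 281 (0.33 ± 0.08, adjusted p = 0.00145). The other 10 classes did not pass, cluster 5 among them, which had the highest mean, 347 ± 50.1 CPM (SD, n = 3). The inflammatory-like call was lost without mouse 2 (adjusted p = 0.074) or mouse 3 (0.19). The cluster 2 call was lost with cells thinned to 2000 UMIs (adjusted p = 0.123) and at Leiden resolution 1.5 (0.0805). Thinned to 2000 UMIs per cell, 48.0%, 44.1% and 39.4% of macrophages of mice 1, 2 and 3 held a UMI of Sirpa, against 13.2% of 38 epithelial cells thinned alike.

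Across the 39 sums, with each gene centred within its mouse, Pirb, Pira2 and Cd200r1 formed 1 group. Pearson's r of log2(CPM + 1) was 0.879 for Pirb and Pira2 (0.895, 0.839 and 0.889 within mice 1, 2 and 3), 0.830 for Pirb and Cd200r1 and 0.794 for Pira2 and Cd200r1. Lair1 and Siglece formed another, with r = 0.834 (0.887, 0.748 and 0.741 within mice). Pairs across the 2 groups had a negative r, strongest at -0.723 for Pira2 and Lair1, -0.569 for Pira2 and Siglece and -0.551 for Pirb and Lair1. The other 3 were weaker, at -0.465 for Cd200r1 and Lair1, -0.434 for Cd200r1 and Siglece and -0.427 for Pirb and Siglece. In mouse 2 these 3 stood at -0.291, -0.249 and -0.296. Siglec1 had r = 0.639 with Pirb. Sirpa had r = 0.597 with Pirb (0.758, 0.440 and 0.453 within mice) but less with Pira2 (0.485, and 0.755, 0.194 and 0.248 within mice) and Cd200r1 (0.428), each highest in mouse 1. Lilrb4a went with neither, its r with the other 7 lying between -0.343 and 0.059. Within mice 1, 2 and 3 its values differed, at -0.030, -0.351 and -0.575 with Lair1 and at 0.193, -0.266 and -0.299 with Siglece. These values describe sums that share libraries and class sizes, and they carry no p.

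**Figure D3:**
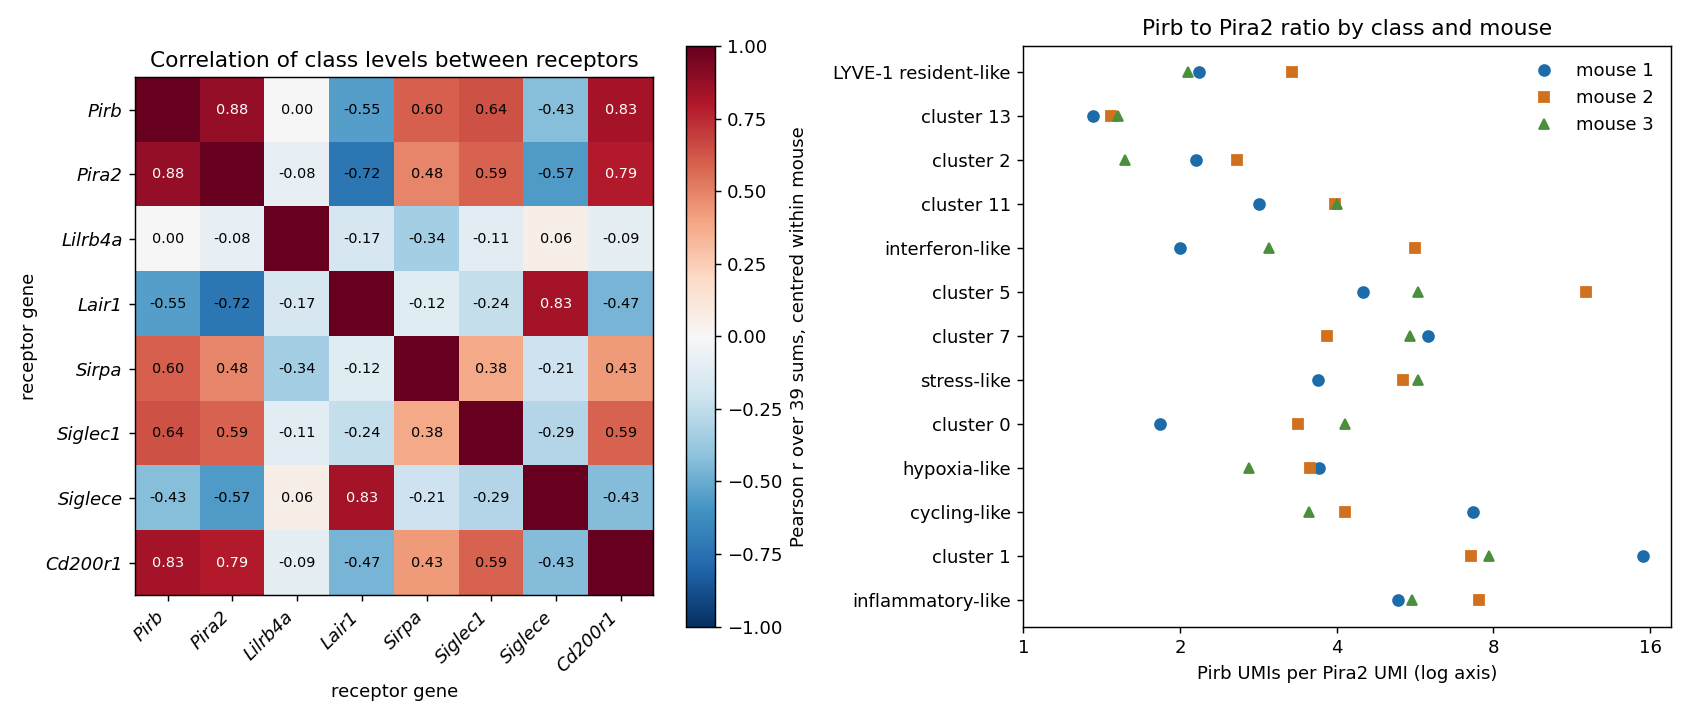
Left, Pearson correlation of log2(CPM + 1) between receptor genes over 39 class-by-mouse sums centred within mice (red positive, blue negative). Right, UMIs of Pirb per UMI of Pira2 on a log2-spaced axis for each class and mouse; the ratio is lowest in cluster 13, at 1.36 to 1.52, and highest in cluster 1 of mouse 1, at 15.5 from 2 UMIs of Pira2.

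The receptors themselves, genes of their families such as Lilr4b and Lilra6, predicted genes and repeated symbols were left out of the next comparison. Among the remaining 4860 genes of at least 20 CPM on average, those most like each receptor over the same 39 sums were found by the same r. For Pirb they were Mrc1 (0.945), Fcgrt (0.935) and Nxpe5 (0.934), and for Pira2 Gda (0.945), Dok2 (0.915) and Ccr2 (0.911). Cd200r1 was most like Dok2 (0.851), Gda (0.849) and F13a1 (0.830). Lair1 was most like Abi3 (0.923), Tgfbr1 (0.918) and Man2b1 (0.911), and Siglece like Tgfbr1 (0.829), Spsb1 (0.818) and Mgat4a (0.802). Siglec1 was most like Ly6e (0.865), Slfn5 (0.829) and Rnf213 (0.820). Lilrb4a was most like Lncpint (0.838), Crtc3 (0.806) and Zfp451 (0.780), and Sirpa, with the smallest values, like Msl1 (0.764), Nacc2 (0.745) and Ctdsp2 (0.705). Of these genes Mrc1, Fcgrt, Nxpe5, Gda, Ccr2, F13a1, Tgfbr1, Ly6e, Slfn5, Rnf213 and Lncpint had been used to form the classes.

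To see whether receptors occurred in the same cells, 9281 macrophages of at least 2000 UMIs were each thinned to 2000. At that depth 19.2%, 17.4% and 25.5% of the cells of mice 1, 2 and 3 held none of the 8 receptors, and 13.9%, 15.7% and 9.18% held 3 or more. Pirb and Pira2 were found together in 224 cells, against 130 expected from their separate shares and 183 expected within classes. Their log2 odds ratio was 1.37 ± 0.69 over all cells (SD, n = 3) and 0.73 ± 0.62 within classes (1.44, 0.27 and 0.49 in mice 1, 2 and 3). At 4000 UMIs the value over all cells was 0.88 ± 0.36, positive in 3 of 3 mice, and that within classes 0.08 ± 0.45, positive in 1 of 3. An excess within classes in all 3 mice was thus seen at 2000 UMIs only. Each depth was 1 random thinning, and what made the 2 differ was not tested. Lair1 and Siglece were found together in 175 cells, against 155 expected within classes (0.71, 0.17 and 0.28 in mice 1, 2 and 3, mean 0.39 ± 0.29). Mouse 1 held 13 of them, and at 4000 UMIs the value was 0.17 ± 0.07, positive in 3 of 3 mice. Pira2 and Lair1 were found together in 132 cells, against 194 expected overall and 160 within classes (-1.80, -0.10 and -0.41 in mice 1, 2 and 3, mean -0.77 ± 0.91). Mouse 1 held 4 such cells, and at 4000 UMIs the value was -0.21 ± 0.04, negative in 3 of 3 mice. Pirb and Lair1, by contrast, were found together in 532 cells against 516 expected within classes (-0.12 ± 0.40). Lilrb4a and Cd200r1 were found together in 24 cells, against 30.3 expected within classes (-1.74, -0.69 and -0.13 in mice 1, 2 and 3). Mouse 1 held 1 of them, and at 4000 UMIs the value was 0.07 ± 0.35, positive in 2 of 3 mice. Of the 28 pairs, 9 had a within-class odds ratio above 1 in all 3 mice, with no share over other genes worked out beside it. Among them were Pirb with Sirpa (0.20 ± 0.16) and Pirb with Lilrb4a (0.24 ± 0.29), which stood at 0.00 in mouse 3. At 4000 UMIs Pirb with Sirpa, Lair1 with Sirpa and Sirpa with Siglece were positive in 2 of 3 mice, and Pira2 with Lilrb4a in 0. Pirb with Lilrb4a, Pirb with Siglec1, Lilrb4a with Lair1 and Lair1 with Siglece stayed positive in 3 of 3. Pairs with Siglec1 or Cd200r1 rested on 3 to 77 cells.

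**Figure D4:**
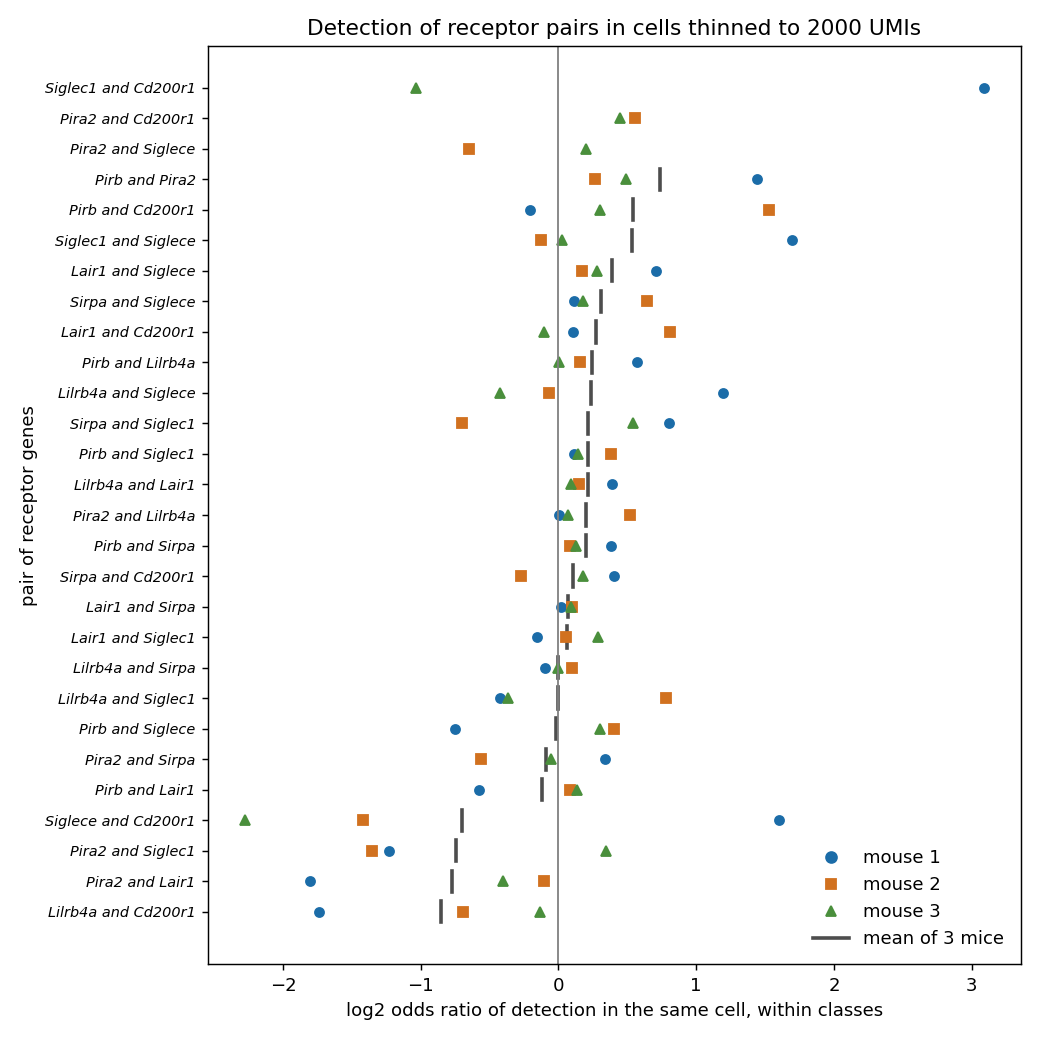
Log2 odds ratio of detecting both receptors of a pair in the same cell, within classes (Mantel-Haenszel), in cells thinned to 2000 UMIs. Points are the 3 mice and bars their mean. A pair found together in no cell of a mouse has no point there and no mean. Of 28 pairs, 9 lie above 0 in all 3 mice. Pira2 with Lair1 and Lilrb4a with Cd200r1 lie below 0 in all 3.

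A view without classes split the same thinned cells by a UMI of a single gene. In cells with Ccr2, the chemokine receptor of recruited monocytes, Pirb stood at 283, 199 and 177 CPM in mice 1, 2 and 3, against 115, 113 and 101 in cells without (log2 ratio 0.98 ± 0.28, SD, n = 3). Pira2 stood at 108, 75.8 and 103 CPM against 27.96, 30.3 and 30.7 (1.68 ± 0.32), and Cd200r1 was higher by 1.62 ± 0.59. Lair1 stood at 84.3, 145 and 162 CPM in cells with Ccr2 against 202, 179 and 200 (-0.62 ± 0.55). Cells with Lyve1, the hyaluronan receptor of resident macrophages, numbered 4, 38 and 195. Pirb stood there at 250, 408 and 264 CPM against 160, 125 and 108 (1.21 ± 0.54), and the log2 ratio of Lair1 was -0.80 ± 0.39. The value of Pirb in mouse 1 rests on 2 UMIs, and at 4000 UMIs its log2 ratios were -0.13, 1.42 and 1.32. Pira2, with 0 UMIs in the Lyve1 cells of mouse 1 at the lower depth, stood at 1.66 ± 0.15 at the higher one. In cells with Il1b, Lilrb4a was higher (0.43 ± 0.16) and Pirb lower (-0.37 ± 0.31), each with the same sign in 3 of 3 mice. At 4000 UMIs Lilrb4a kept its sign in 3 of 3 mice (0.70 ± 0.37) and Pirb did not. Cells with Ifit3, an interferon-induced gene, numbered 12, 29 and 91 and held 41.7, 17.2 and 22.0 CPM of Siglec1 against 19.1, 7.68 and 7.88 (1.26 ± 0.19). These values rest on 1, 1 and 4 UMIs in the cells with Ifit3, and at 4000 UMIs the log2 ratios were 2.95, 1.80 and 1.07 (1.94 ± 0.95). Siglece was higher in cells with H2-Ab1, an MHC class II gene (0.98 ± 0.74). Cells with Trem2 held less Pira2 (-0.77 ± 0.30) and more Lair1 (0.32 ± 0.08). In cells with Fosb, a stress gene, Pirb was higher by 0.19 ± 0.12 and Pira2 lay at -0.02 ± 0.25. Of the 72 pairs of receptor and split gene, 30 had the same sign in 3 of 3 mice. Some of these rest on few UMIs in a mouse, such as 1 for Sirpa with Lyve1 and 2 for Lair1 with Arg1. No share over all genes was worked out to set beside this count.

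**Figure D5:**
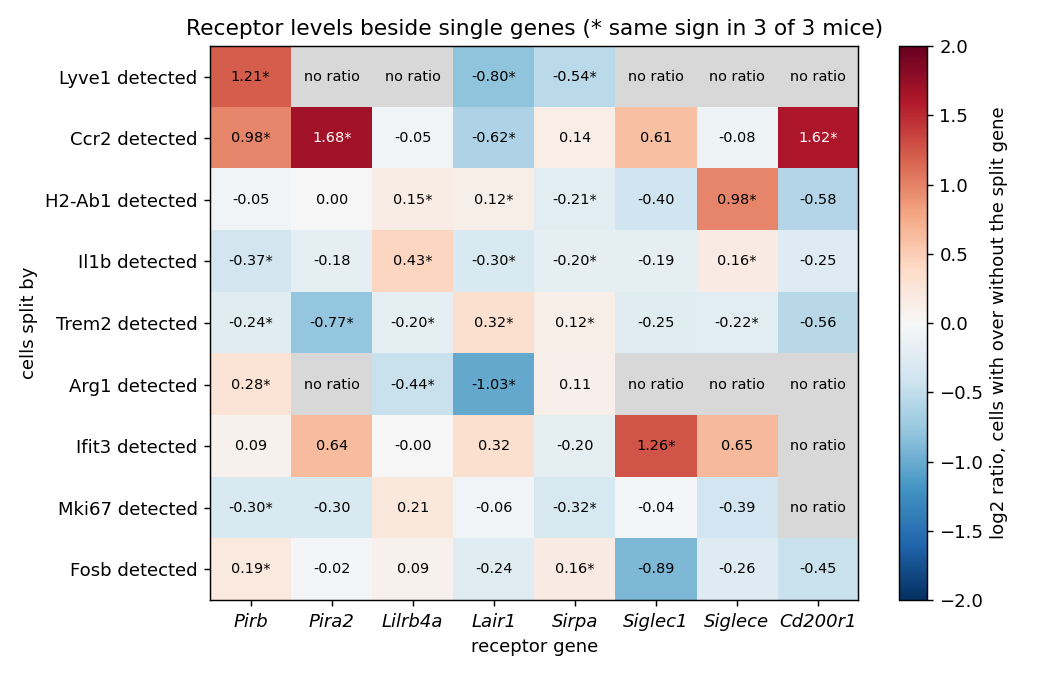
Mean over 3 mice of the log2 ratio of each receptor's level (columns) in cells with a UMI of a split gene over cells without (rows), cells thinned to 2000 UMIs. A star marks the same sign in 3 of 3 mice and grey marks pairs with 0 UMIs in the split cells of a mouse; cells with Ccr2 are high in Pirb, Pira2 and Cd200r1 and low in Lair1.

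Other genes of the receptor system also differed between classes. They passed in larger shares than the 18.6% of pairs of a class and a gene not used to cluster. These genes too were held out of the choice of genes for clustering, and were listed with earlier results of these data known. Among 15 other inhibitory receptors, 14 could be tested, and of their 182 pairs with a class 33 were higher and 30 lower (34.6%, median log2 difference -0.03). Cd72, a receptor with inhibitory motifs, rose in interferon-like cells (1.49 ± 0.13, 424 ± 151 CPM) and fell in LYVE-1 resident-like cells (-1.94 ± 0.19, 48.7 ± 6.29 CPM). Klra2 did the same (1.35 ± 0.20 and -2.34 ± 0.38). Klrb1b rose in inflammatory-like (1.54 ± 0.17) and fell in LYVE-1 resident-like cells (-1.78 ± 0.40), and Pecam1 rose in cluster 7 (3.44 ± 0.36) and fell in LYVE-1 resident-like cells (-1.50 ± 0.56). Clec12a, a C-type lectin, rose in cluster 2 (1.69 ± 0.14) and fell in inflammatory-like cells (-1.37 ± 0.20). Fcgr2b, the inhibitory Fc receptor, shared its ends with Pirb: it rose in LYVE-1 resident-like cells (1.13 ± 0.14, 672 ± 162 CPM) and fell in inflammatory-like cells (-0.77 ± 0.16, 171 ± 22.5 CPM). In the LYVE-1 resident-like class 3 of the 14 rose and 7 fell (18.4% and 14.8% of all genes), and the median of the list was -0.38.

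Of 31 activating and paired receptors, 25 were among the features and 21 could be tested, with 58 pairs higher and 43 lower of 273 (37%, median 0.05). In cluster 2, 11 of the 21 rose and 3 fell (66.7%, against 15.9% and 9.69% of all genes). Clec4e (Mincle), a receptor for microbial glycolipids, rose in cluster 2 (2.44 ± 0.19, 419 ± 179 CPM) and fell in cluster 5 (-3.91 ± 0.42, 8.99 ± 4.27 CPM). Trem1, an amplifier of inflammatory responses, rose in hypoxia-like cells (1.60 ± 0.22) and fell in cluster 5 (-3.33 ± 0.50). Siglech rose in inflammatory-like (2.03 ± 0.19) and fell in hypoxia-like cells (-2.06 ± 0.42). Sirpb1c, an activating relative of Sirpa, fell in LYVE-1 resident-like cells (-2.48 ± 0.62).

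Among 20 phosphatases, kinases and adaptors, 49 of 260 pairs were higher and 41 lower (34.6%, median 0.00). Ptpn6 ranged from 0.35 ± 0.08 in cluster 5 to -0.34 ± 0.10 in LYVE-1 resident-like cells, and Inpp5d from 0.35 ± 0.07 in stress-like to -0.37 ± 0.08 in hypoxia-like cells. Ptpn11 was highest in cluster 13 (0.52 ± 0.09) and stood lowest in cluster 0, at -0.72 ± 0.24, which did not pass (edgeR adjusted p = 0.106). Fcer1g, which PIR-A receptors need, ranged from 0.25 ± 0.07 in interferon-like to -0.30 ± 0.07 in cycling-like cells, and Tyrobp from 0.37 ± 0.06 in inflammatory-like to -0.50 ± 0.07 in LYVE-1 resident-like cells. Dok2, the adaptor through which CD200R1 is known to signal, rose in cluster 13 (3.38 ± 0.10, 186 ± 53.7 CPM, edgeR adjusted p = 1.88e-32) and fell in inflammatory-like cells (-2.80 ± 0.22, 3.03 ± 1.22 CPM), the classes in which Cd200r1 was highest and lowest. Rasa1, the Ras GTPase-activating protein that DOK proteins recruit, rose in LYVE-1 resident-like (0.74 ± 0.13) and fell in inflammatory-like cells (-0.54 ± 0.12). Among the other kinases and adaptors, Fgr rose in cluster 13 (1.29 ± 0.15), and Pag1 rose in stress-like (1.01 ± 0.10) and fell in cluster 2 (-0.72 ± 0.14).

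Of 18 ligand genes, 12 could be tested in macrophages, with 29 of 156 pairs higher and 21 lower (32.1%, median -0.01). Cd47, the ligand of Sirpa, rose in cluster 2 (0.72 ± 0.08, 447 ± 58.7 CPM) and fell in cluster 5 (-0.78 ± 0.09, 203 ± 10.9 CPM). Cd200 was too sparse to be tested. H2-K1, an MHC class I gene, rose in interferon-like cells (0.65 ± 0.08) and fell in cluster 5 (-0.45 ± 0.09). C1qa, of the LAIR-1 ligand C1q, rose in cluster 1 (0.43 ± 0.11) and fell in cluster 13 (-1.01 ± 0.13), where Lair1 fell too. Fn1 (fibronectin) and Apoe encode reported ligands of the human relative of gp49B. Fn1 rose in cluster 13 (3.39 ± 0.24, 2454 ± 124 CPM) and fell in cluster 5 (-1.61 ± 0.38). Spn, a sialylated partner of Siglec1, rose in cycling-like cells (2.20 ± 0.20), and Apoe rose in cluster 1 (0.93 ± 0.12) and fell in cluster 13 (-1.11 ± 0.15). Only the macrophages' own ligand RNA is seen here, since the sort selected macrophages and tumour and stromal cells also carry these ligands.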

How the data were processed

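The deposited values were UMI counts per gene and barcode, made by the authors with Cell Ranger 3.0.2 on build mm10 (per the submitters' processing notes). The sources used here do not name the annotation release. The members and gene lists were chosen with earlier results of these data known. The features and barcodes files carried names only.

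Cells with fewer than 500 genes, or more than 15% mitochondrial UMIs, were dropped. Scrublet marked 0.113% of cells as doublets, and these were dropped. At such a share the caller cannot have worked, and dropping the top scores at 0.8% per 1000 barcodes served as an alternative. The 2000 most variable genes, without the 86 pathway genes, were clustered in scanpy 1.11.5 (30 components, 15 neighbours, Leiden resolution 1.0). Naming a cluster took 5 or more markers of 1 list that were found in 10% of its cells and exceeded the other clusters by 0.5 (log2), more than of any other list, with the most among its 25 leading genes, and when no other list had all its markers higher.

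Counts were summed per mouse and class (at least 10 cells) and tested in edgeR 4.0.16 (TMM, filterByExpr, robust quasi-likelihood F test, 2-sided, class and mouse as terms), with Benjamini-Hochberg adjustment over the genes not used to cluster. Each tumour came from a separate mouse, so the mouse pairs the classes. SE is the log2 fold change divided by the square root of F. Named genes of a list passed in at least 1 class with 1 sign in every mouse, reached 20 CPM and had the 5 widest ranges, and Cd47, Cd200, H2-K1, Ptpn6, Ptpn11, Inpp5d, Fcer1g, Tyrobp, Fcgr2b and Lilr4b are given whatever their result. One gene that this rule names is not reported here. Gene positions and transcript ends came from GENCODE on the same build, matched by gene ID. Before use, this model was run on simulated counts with set changes in LYVE-1 resident-like or inflammatory-like cells only. Other genes had the same mean in every class of a mouse, unlike the data, and the outcome is not given here. CPM, correlations, odds ratios and ratios carry no test.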

Additional observations from a re-analysis of the deposited data

How the results depend on the processing

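Of the 49 calls, 21 held under every alternative that gave a value, and 2 more were lost only without the mouse term. The number of receptor calls was 49 with DESeq2 size factors, 48 with the DESeq2 Wald test and 51 without a filter on low counts. It fell to 28 of 104 with no replicate block. It was 28 of 91 with cells thinned to 2000 UMIs, 19 of 32 at Leiden resolution 0.5 and 31 of 80 with 4000 variable genes, settings that left fewer UMIs or fewer classes to compare. It ranged from 29 to 49 when each mouse was left out, lowest without mouse 2. The block is the animal itself, and leaving it out also lowered the calls of the other pathway genes from 304 to 149, which ranged from 161 to 328 with each mouse left out. The class with the highest level was the same for 5 to 8 of the 8 receptors, the pairs found together within classes in every mouse left numbered 10 to 14, those of receptor and split gene with 1 sign 39 to 46, and the widest difference in the log2 ratio of Pirb to Pira2 was 2.47 to 2.94. With 4000 variable genes 2 values changed sign, Pira2 (0.18) and Cd200r1 (0.20) in cycling-like cells. With UMIs split at random into 2 sets, 1 for clusters and 1 for tests, 37 of 80 pairs passed. Shallow depth limits Siglec1 and Cd200r1 most, and classes of few cells in mouse 1.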
